A study of Homo sapiens with 54 samples.

Results

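The comparison described here set tumors responding to enzalutamide (ENZS, n = 12) against tumors that had relapsed after castration alone (CRPC, n = 10), which makes 22 of the 54 LNCaP xenografts in the series, chosen by their group labels. LNCaP (clone FGC) is a cell line from a human prostate cancer metastasis that depends on androgen, and here it was grown under the skin of male NOD-SCID mice, which lack functional T and B cells. The mice of both groups had been surgically castrated. CRPC tumors came from mice without drug and were taken when serum prostate-specific antigen (PSA) had returned to its level before castration or when the tumor had reached the size limit. ENZS tumors came from mice gavaged with enzalutamide at 10 mg/kg on 5 days a week from the time that PSA began to rise after castration, and were taken on drug at the second PSA minimum. The question was what enzalutamide added to castration changed in the tumor cells. The design bears on the values in 2 ways. The drug was started at the beginning of the PSA rise and CRPC tumors were harvested at its end, so the CRPC group is not the state from which the treated tumors set out. Harvest of both groups was timed by serum PSA, the product of KLK3, so the KLK3 level is tied to how the groups were made. Each tumor came from its own mouse, all tumors derived from the same clone, and the labels give no batch or date.

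Testosterone and dihydrotestosterone switch on prostate secretory genes such as KLK3 and KLK2. Castration removes testicular androgen, but residual steroids can restore this output, which is a common course to castration-resistant disease. Enzalutamide is an oral drug that blocks androgen signaling. In LNCaP cells androgen also drives growth, so both the secretory targets and the cell division program are read out by the transcriptome.

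The values are TPM (transcripts per 1000000 transcripts), a relative measure of transcript abundance corrected for transcript length. Human and mouse transcripts together made up the total of 1000000 in each tumor, and only human genes were tabulated. The human part was 92.1% ± 5.63 (SD, n = 10) in CRPC and 87.5% ± 6.86 (SD, n = 12) in ENZS, a difference of means of -4.54 percentage points (two-sided permutation test, p = 0.106). Each tumor was therefore rescaled to 1000000 human TPM. Genes at 1 TPM or more were more numerous in ENZS, 15578 to 16742 per tumor against 14577 to 15574 in CRPC. The sequencing depth of single tumors is unknown, since TPM keep none, and precision rests on the spread between tumors. LNCaP and luminal markers were high throughout, with KRT8 from 221 to 492 TPM over the 22 tumors, while PECAM1, CDH5, PTPRC, HBB, FAP, POSTN and THY1 of vessel, blood and stroma stayed below 1 TPM in every tumor. Other stroma markers were not low in all tumors. The highest ENZS values were 137 TPM for LUM, 73.3 TPM for COL3A1, 43.1 TPM for DCN and 27.0 TPM for TAGLN. Over all 25 stroma and blood markers the summed level ran from 27.0 to 111 TPM in CRPC (median 36.9) and from 43.8 to 326 TPM in ENZS (median 72.6).

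Differences are given as log2(rescaled TPM + 1), ENZS minus CRPC, from limma fitted over all 54 tumors, a scale that understates changes of genes near or under 1 TPM. A gene passed at a Benjamini-Hochberg adjusted p under 0.05 over 17593 genes tested and was called when the log2 difference was also at least 1 in size. Of the tested genes 37.8% passed, 31.4% higher and 6.41% lower in ENZS. In all 498 genes were called (2.83%), of which 280 were higher (1.59%) and 218 lower (1.24%). The median over all genes was 0.21, not 0. When each tumor was instead centred on its median gene, the median was 0.01 and the split turned to 11.2% passed higher and 13.9% passed lower, with 110 genes called higher and 340 called lower. Values below are best read against a background of 0.21, and the plot of all genes shows how the main gene groups lie around it. For 244 genes (1.39%) the groups did not overlap, 92 with all ENZS tumors above all CRPC tumors (0.523%) and 152 with all below (0.864%). That count was held down in part by a single tumor and was 383 without the ENZS tumor of mouse 45.

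**Figure D1:**
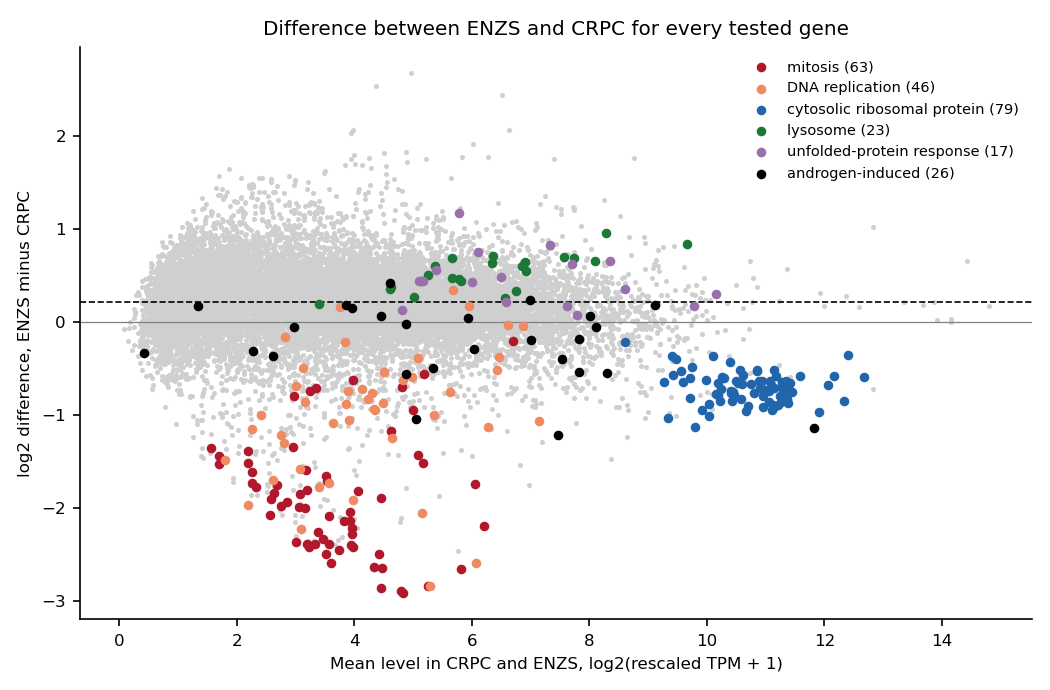
Log2 difference (ENZS minus CRPC) of every tested gene against its mean level on the log2(rescaled TPM + 1) scale, with 6 gene lists colored, list sizes in parentheses, and the median of all genes (0.21) as a dashed line. Mitosis genes reach down to -2.92, and the ribosomal protein genes form a compact group at high level, all below 0.

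Genes of mitosis were lower in ENZS. All 63 tested members of the mitosis list passed as lower in ENZS, 55 of them called, with a median log2 difference of -1.94. By comparison 6.41% of all genes passed as lower and 1.24% were called lower. The 12 ENZS tumors did not share 1 common low level. The mean of the 63 genes ran from 1.42 to 3.62 on the log2 scale in ENZS and from 3.54 to 4.96 in CRPC, so the ranges touched, and the ENZS tumor of mouse 45 was the 1 that reached the CRPC range. For 12 of the 63 genes every ENZS tumor was below every CRPC tumor, a separation seen in 0.864% of all genes.

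UBE2C, which charges the anaphase-promoting complex with ubiquitin, was measured at 21.9 to 85.04 TPM in CRPC (median 42.7) and at 0.424 to 21.8 TPM in ENZS (median 5.01). The groups did not overlap, with the highest ENZS tumor just under the lowest CRPC tumor. The log2 difference was -2.90 ± 0.45 (SE, adjusted p = 8.69e-06). CCNB2, a cyclin that binds CDK1 at entry into mitosis, was at 19.5 to 62.8 TPM in CRPC (median 37.5) and at 0.794 to 15.5 TPM in ENZS (median 4.73), again without overlap and with a difference of -2.64 ± 0.38 (adjusted p = 4.54e-06). CCNB1, the second mitotic B-type cyclin, fell less far. It lay between 62.4 and 163 TPM in CRPC (median 99.6) and between 18.8 and 49.4 TPM in ENZS (median 23.6), a difference of -1.74 ± 0.25. HMMR, a spindle protein, dropped from a median of 29.9 to 4.63 TPM without overlap (-2.64 ± 0.39). MKI67, the antigen used in pathology to mark cycling cells, had a median of 9.37 TPM in CRPC and 1.71 TPM in ENZS (-1.75 ± 0.29, adjusted p = 1.50e-05), and all 12 ENZS tumors were below the CRPC median. The kinase CDK1 (-2.20 ± 0.34) and topoisomerase TOP2A (-2.40 ± 0.41) overlapped slightly between groups and passed. Of the 8 called genes with the largest fall, PBK (-2.92), BIRC5 (-2.86), NUSAP1 (-2.84) and PTTG1 (-2.66) belong to mitosis as well. BIRC5 is the survivin subunit of the chromosomal passenger complex and PTTG1 is securin, the inhibitor of separase.

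Promoters of cell division genes commonly carry a cell cycle homology region (CHR), read by the DREAM and MuvB complexes, near CCAAT boxes read by NF-Y. The 250 bases before the RefSeq start (GRCh38.p14) of a pair of genes without overlap between groups show this arrangement, with CHR letters (TTTGAA or TTCGAA, on either strand) and CCAAT (or its complement ATTGG) in capitals. CCNB2 is at chr15:59104896-59105145 on the plus strand and HMMR at chr5:163460382-163460631 on the plus strand.
CCNB2: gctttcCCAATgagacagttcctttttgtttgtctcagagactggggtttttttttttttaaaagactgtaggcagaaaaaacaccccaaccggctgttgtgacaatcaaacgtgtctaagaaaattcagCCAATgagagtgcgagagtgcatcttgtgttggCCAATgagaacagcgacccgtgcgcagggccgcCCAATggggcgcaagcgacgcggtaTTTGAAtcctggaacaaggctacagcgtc
HMMR: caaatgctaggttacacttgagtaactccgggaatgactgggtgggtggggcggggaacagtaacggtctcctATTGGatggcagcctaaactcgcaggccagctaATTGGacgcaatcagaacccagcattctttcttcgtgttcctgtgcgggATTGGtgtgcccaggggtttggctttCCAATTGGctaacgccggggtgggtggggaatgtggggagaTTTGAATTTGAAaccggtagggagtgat
In CCNB2 the CHR letters lay 29 to 24 bases before the start, below 4 CCAAT boxes, and in HMMR they stood as adjacent copies at 28 to 23 and 22 to 17 bases before it. The CHR letters were in 28 of the 53 mitosis promoters in the table (52.8%) and in 9.63% of the 10972 tested genes with a promoter. CHR and CCAAT together were in 45.3% of mitosis promoters and in 4.04% of all. Such a match is a description of the letters and not a measurement of binding. The plot of motif shares sets these values beside those of the other lists.

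**Figure D2:**
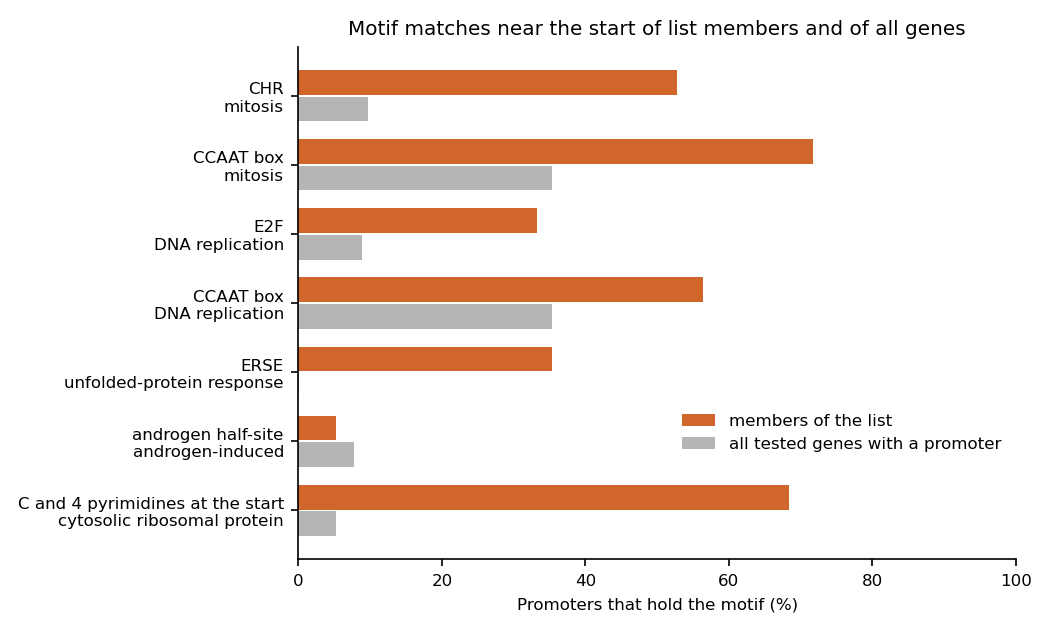
Share of promoters (%) that hold a motif on either strand in the 250 bases before the start (for the last pair, at the start itself), for members of a list (orange) and for all 10972 tested genes with a promoter (grey). CHR letters are in 52.8% of mitosis promoters against 9.63% of all, and the androgen element AGAACA is in 5.26% of androgen-induced promoters against 7.68% of all.

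Genes of DNA replication were lower as well. Of 46 members tested 39 passed as lower and none as higher, 21 were called, and the median log2 difference was -0.91. The shares of all genes were 6.41% passing as lower, 31.4% as higher and 1.24% called lower. RRM2, the S-phase subunit of ribonucleotide reductase, was at 28.0 to 120 TPM in CRPC (median 60.0) and at 0.641 to 45.6 TPM in ENZS (median 9.18), a difference of -2.84 ± 0.50 (adjusted p = 4.42e-05), and only the upper end of ENZS entered the CRPC range. TYMS, thymidylate synthase, was at 54.7 to 181 TPM in CRPC (median 107) and at 4.49 to 69.6 TPM in ENZS (median 16.5), with a difference of -2.60 ± 0.40. TK1, thymidine kinase, was at 31.4 to 115 TPM against 5.03 to 27.9 TPM, did not overlap, and differed by -2.06 ± 0.30. CDC45, a subunit of the replicative helicase, differed by -2.23 ± 0.36. Its partner MCM2, which is loaded on origins ahead of S phase, differed less, with medians of 23.5 and 12.0 TPM (-0.94 ± 0.19). DUT, which destroys dUTP, did not pass (-0.04, adjusted p = 0.650) and had medians of 117 and 113 TPM. The replication list therefore held both members that were several-fold lower and members near the level of CRPC.

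E2F transcription factors, held in check by the RB protein, bind the letters TTCCCGC (complement GCGGGAA) in many S-phase promoters. TYMS is shown, from chr18:657403-657652 on the plus strand, with the E2F letters in capitals.
TYMS: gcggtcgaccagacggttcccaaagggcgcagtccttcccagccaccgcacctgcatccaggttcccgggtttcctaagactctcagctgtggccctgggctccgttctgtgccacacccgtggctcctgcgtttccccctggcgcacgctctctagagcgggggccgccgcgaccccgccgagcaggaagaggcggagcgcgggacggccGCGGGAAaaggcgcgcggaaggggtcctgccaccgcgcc
These letters were found in 13 of 39 replication promoters (33.3%), in 11.3% of mitosis promoters and in 8.83% of all. CHR letters, by contrast, were in 5.13% of replication promoters.

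Of 28 tested genes of the G1 and RB pathway, 9 passed as lower and 4 as higher. Over all genes 6.41% passed as lower and 31.4% as higher. After centring 12 of the 28 were lower and 1 higher, and on TPM as deposited 7 were lower and 1 higher. The 3 called lower members were E2F family genes. E2F1 had medians of 15.0 TPM in CRPC and 3.84 TPM in ENZS (-1.75 ± 0.32), E2F8 of 3.82 and 0.399 TPM (-1.51 ± 0.25) and E2F7 of 2.23 and 0.356 TPM (-1.05 ± 0.22). The highest member was CDKN2B (chr9:22002903-22009313), which encodes p15, an inhibitor of CDK4 and CDK6. Its levels were 1.29 to 5.39 TPM in CRPC (median 2.34) and 5.52 to 38.4 TPM in ENZS (median 8.86), without overlap and with a difference of 1.52 ± 0.35 (adjusted p = 0.000887). The neighbouring steps did not pass. CDKN1A, which encodes p21, differed by 0.24 (adjusted p = 0.604), CCND1, the D-type cyclin, by -0.05 (adjusted p = 0.818), and RB1 by 0.08 (adjusted p = 0.641). Medians of CCND1 were 119 TPM in CRPC and 98.1 TPM in ENZS, and those of RB1 were 35.3 and 34.4 TPM.

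Of 21 homologous recombination genes 13 passed as lower and 1 as higher, where 6.41% of all genes passed as lower and 31.4% as higher. EXO1, a resecting exonuclease, had no overlap between groups (medians 6.05 and 0.726 TPM). BRCA1, a scaffold of break repair, had medians of 10.1 and 2.25 TPM (-1.66 ± 0.28). Among chromatin genes, UHRF1, which brings the maintenance DNA methyltransferase to replicating DNA, was lower (6.65 and 1.22 TPM, -1.83 ± 0.32). The polycomb methyltransferase EZH2 was lower (13.9 and 8.73 TPM, -0.57 ± 0.16) while its paralog EZH1 was higher (17.2 and 27.0 TPM, 0.57 ± 0.13).

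The tumors on enzalutamide also carried less of their transcriptome in ribosomal protein mRNA. The ribosomal protein genes made up 18.9% ± 3.21 of human TPM in CRPC (15.5% to 26.5%) and 11.7% ± 2.35 in ENZS (7.11% to 14.3%), so the groups did not overlap. All 79 genes passed as lower, with a narrow spread from -1.13 to -0.22 and a median of -0.71, and for 41 of them all ENZS tumors were below all CRPC tumors. Of all genes 6.41% passed as lower, and 0.864% had all ENZS tumors below all CRPC tumors. RPS3, a protein of the small subunit, was at 974.8 to 1952 TPM in CRPC (median 1327) and at 453 to 909 TPM in ENZS (median 714), a difference of -1.01 ± 0.16 (adjusted p = 7.84e-06). RPS19 had medians of 878 and 456 TPM (-1.04 ± 0.17), and RPL26 of the large subunit of 4702 and 2631 TPM (-0.97 ± 0.17). On TPM as deposited, which include the swing in mouse content, 40 of the 79 passed, where 2.71% of all genes passed as lower. Ribosomal protein genes have many near-identical pseudogenes, so the split of reads among copies is uncertain. Transcripts of most of these genes start with a C followed by pyrimidines, the element through which mTOR controls their translation. At the RefSeq start a C and 4 pyrimidines stood in 43 of 63 ribosomal protein genes (68.3%) and in 5.25% of all.

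**Figure D3:**
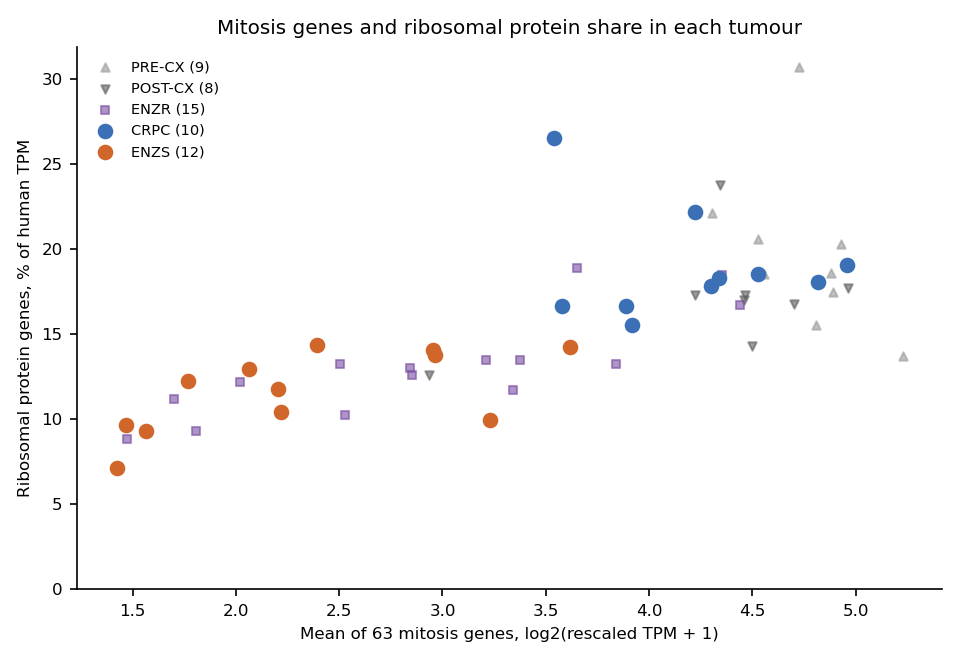
Each point is a tumor, with the mean of 63 mitosis genes on the log2(rescaled TPM + 1) scale on the x axis and the ribosomal protein share of human TPM (%) on the y axis, for all 54 tumors by group. ENZS tumors (orange) sit at 1.42 to 3.62 and 7.11% to 14.3%, and CRPC tumors (blue) at 3.54 to 4.96 and 15.5% to 26.5%, next to PRE-CX and POST-CX, while ENZR tumors spread over both ranges.

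Ribosome biogenesis factors were lower in part, with 18 of 43 passing as lower and 1 as higher (median -0.22), against 33 lower after centring and 3 on TPM as deposited. Of all genes 6.41% passed as lower and 31.4% as higher. The share passing as lower was 13.9% after centring and 2.71% on TPM as deposited. MYC, the transcription factor that drives ribosome production and cell growth, was the 1 member called, at 53.6 to 118 TPM in CRPC (median 86.3) and 7.38 to 65.5 TPM in ENZS (median 37.3), a difference of -1.44 ± 0.31 (adjusted p = 0.000372). All 12 ENZS tumors were below the CRPC median of MYC. NPM1, a nucleolar chaperone, had medians of 2298 and 1395 TPM without overlap (-0.78 ± 0.15), and FBL, the methyltransferase of ribosomal RNA, of 168 and 98.8 TPM (-0.84 ± 0.14). NOP16, a MYC-responsive nucleolar protein, differed by -0.69 ± 0.15. Mitochondrial ribosomal proteins passed as lower in 34 of 78 (median -0.18), in 55 after centring and in none on TPM as deposited, led by MRPL12 (84.0 and 61.7 TPM, no overlap, -0.58 ± 0.11). The count for ribosome biogenesis was 10 without the CRPC tumor of mouse 81 or of mouse 102, and that for mitochondrial ribosomal proteins was 22 without mouse 81.

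The androgen-induced genes moved far less than the cell cycle. Of 26 members 3 passed as lower and none as higher, where 6.41% of all genes passed as lower and 31.4% as higher. The median was -0.19 (-0.40 after centring), against 0.21 (0.01) for all genes. Differences over the list ran from -1.22 to 0.415, so not every member was lower in ENZS. KLK3 (chr19:50854915-50860764), the gene of PSA, was at 2825 to 6828 TPM in CRPC (median 4690) and at 232 to 4693 TPM in ENZS (median 2803). The groups overlapped widely, the lowest ENZS value came from mouse 49, and the difference was -1.14 ± 0.46 (adjusted p = 0.0429). KLK2, a related secretory protease, was at 94.9 to 544 TPM in CRPC (median 230) and at 16.9 to 251 TPM in ENZS (median 137), a difference of -1.22 ± 0.50 (adjusted p = 0.0489). SLC45A3, a prostate membrane transporter, was at 10.7 to 63.3 TPM in CRPC (median 39.0), and at 2.76 to 122 TPM in ENZS (median 9.92), with the highest value of all in the ENZS tumor of mouse 101 (-1.04 ± 0.40, adjusted p = 0.0360).

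These 3 calls were marginal. KLK3 no longer passed when the CRPC tumor of mouse 29, 35, 36, 81, 89 or 107 or the ENZS tumor of mouse 49, 56, 57, 79 or 80 was left out, with adjusted p up to 0.105 and a difference of -0.86 without mouse 49. KLK2 was lost without CRPC mouse 29, 43, 47, 78, 81, 89 or 107 or ENZS mouse 17, 49, 56, 57, 79 or 80 (adjusted p up to 0.101, with -1.01 without mouse 49). SLC45A3 was lost without CRPC mouse 43, 47, 78, 81 or 107 or ENZS mouse 17, 28, 49, 56, 57, 79 or 80 (adjusted p up to 0.0816, with -0.85 without mouse 28). The count of androgen-induced genes that passed ran from 0 to 5 over these refits, was 0 on TPM as deposited and 7 after centring. Of all genes 2.71% passed as lower on TPM as deposited and 13.9% after centring. Other well-known targets did not pass. TMPRSS2, a serine protease gene under androgen control, had medians of 248 and 135 TPM (-0.54, adjusted p = 0.119). Among the refits without 1 tumor it passed only without ENZS mouse 45 (adjusted p = 0.0465). FKBP5, a chaperone of steroid receptors, had medians of 29.9 and 18.99 TPM (-0.56, adjusted p = 0.119). For both genes 9 of 12 ENZS tumors were below the CRPC median.

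Against the other groups of the series, KLK3 averaged 4646 ± 1174 TPM (SD) in CRPC and 4590 ± 1470 TPM in tumors of mock-operated mice (PRE-CX, n = 9), while ENZS at 2620 ± 1518 TPM lay above the tumors taken a week after castration (POST-CX, n = 8, 1670 ± 905 TPM). FKBP5 had a different order, with 180 ± 104 TPM in PRE-CX and 30.7 ± 7.83 TPM already in POST-CX. SLC45A3 likewise stood at 182 ± 52.3 TPM in PRE-CX and 25.3 ± 11.4 TPM in POST-CX. In CRPC tumors KLK3 was near, and FKBP5 and SLC45A3 were well below, the level of intact animals. Harvest of CRPC and ENZS tumors was timed by serum PSA, or in CRPC by tumor size. The order of KLK3 is therefore tied to how these groups were made. The KLK3 promoter carries androgen response elements, and the part just before its start (chr19:50854665-50854914, plus strand) is shown with AGAACA, a single arm of such an element, in capitals.
KLK3: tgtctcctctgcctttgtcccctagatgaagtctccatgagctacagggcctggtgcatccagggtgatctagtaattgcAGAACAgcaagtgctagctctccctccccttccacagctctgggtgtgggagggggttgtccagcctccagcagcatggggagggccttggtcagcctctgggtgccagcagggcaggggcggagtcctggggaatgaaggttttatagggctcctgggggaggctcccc
These letters lay 170 to 165 bases before the start. KLK3 was the only 1 of 19 androgen-induced promoters to hold them in this window (5.26%), against 7.68% of all, so the search of short windows did not set the list apart.

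**Figure D4:**
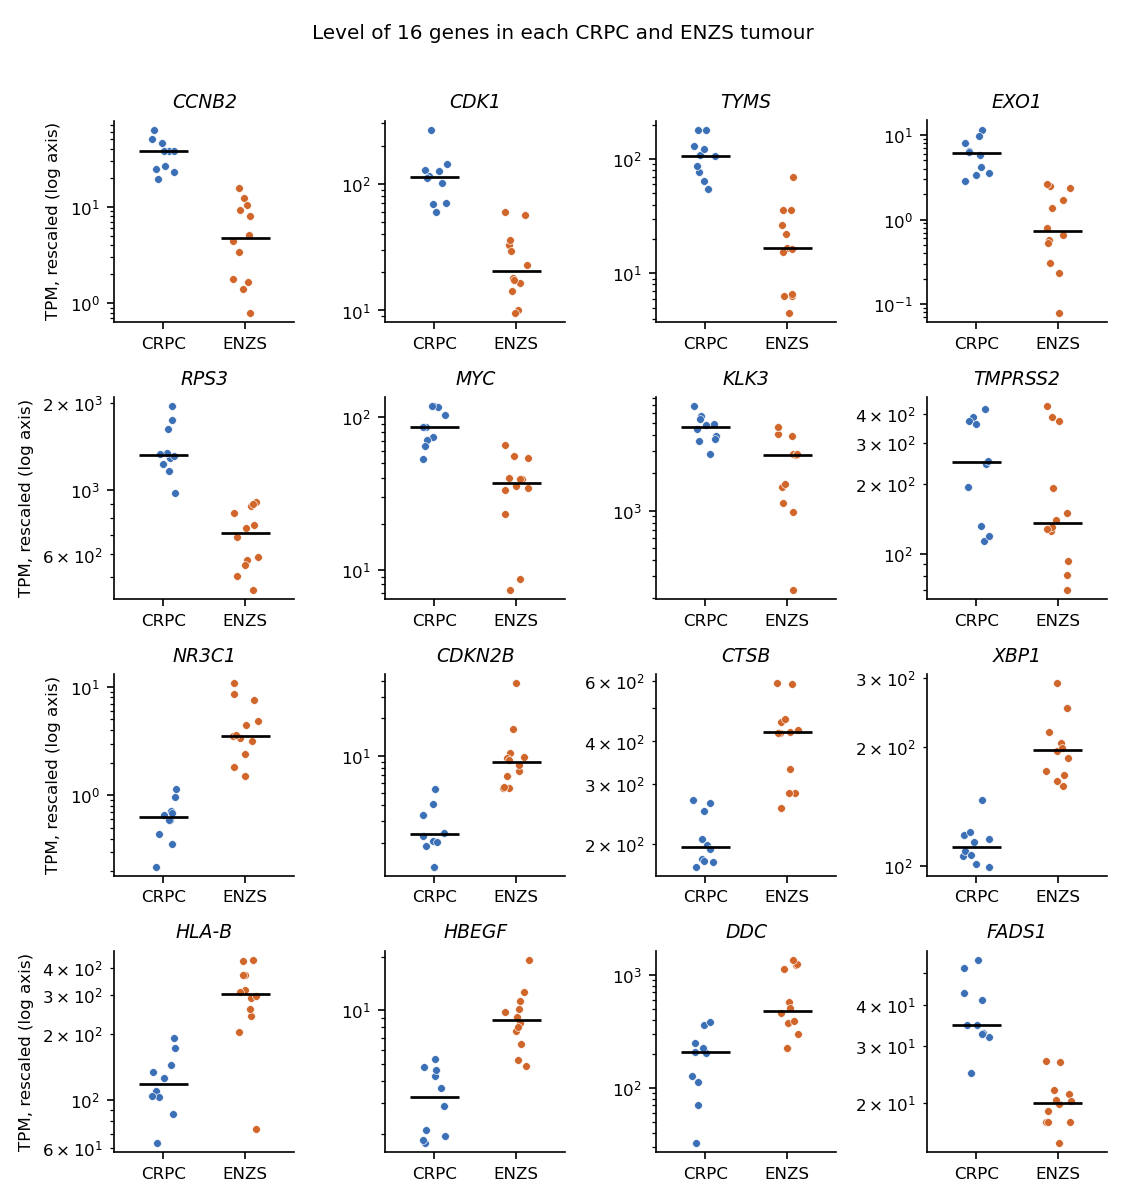
Rescaled TPM (log axis) of 16 genes in each tumor, CRPC in blue and ENZS in orange, with the group median as a black bar. CCNB2, EXO1 and RPS3 in ENZS lie wholly below CRPC, NR3C1, CDKN2B and XBP1 wholly above, and KLK3 and TMPRSS2 overlap.

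Of 7 genes that androgen represses 4 were higher, where 31.4% of all genes were, with a median of 1.04 (3 of 7 after centring). NR3C1 (chr5:143277931-143435512), the glucocorticoid receptor, is held low by androgen in prostate cells. It was at 0.221 to 1.14 TPM in CRPC (median 0.626) and at 1.497 to 10.8 TPM in ENZS (median 3.54). Every ENZS tumor was above every CRPC tumor, and the difference was 1.64 ± 0.29 (adjusted p = 4.51e-05). NR3C1 was at 0.506 ± 0.387 TPM in PRE-CX, 0.687 ± 0.436 TPM in POST-CX and 4.55 ± 4.09 TPM in tumors that had relapsed on enzalutamide (ENZR, n = 15), so averages above 1 TPM were seen in the drug-treated groups alone. MET, a receptor tyrosine kinase, had medians of 0.291 and 1.46 TPM (1.04 ± 0.27), and CCN3, a matricellular protein, of 1.21 and 2.52 TPM (1.13 ± 0.25), both low. The mineralocorticoid receptor gene NR3C2 was higher (2.94 and 5.46 TPM, 0.83 ± 0.20). Of 12 glucocorticoid response genes 3 passed as higher, where 31.4% of all genes did, and none did after centring or on TPM as deposited.

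Enzymes that conjugate or make androgens gave a mixed record. UGT2B15 and UGT2B17, which glucuronidate dihydrotestosterone and are raised when androgen signaling falls, spread over a wide range in both groups and did not pass. UGT2B17 ran from 5.82 to 117 TPM in CRPC and from 2.53 to 264 TPM in ENZS (0.67, adjusted p = 0.442), and UGT2B15 differed by 0.49 (adjusted p = 0.521). This pair is close in sequence, and their split is uncertain. AKR1C3, which makes testosterone from androstenedione, was higher, at 0.186 to 4.77 TPM in CRPC (median 1.46) and 1.13 to 11.6 TPM in ENZS (median 3.18), a difference of 1.07 ± 0.26 (adjusted p = 0.00139). STS, which frees sulfated steroids, had medians of 5.21 and 8.01 TPM (0.53 ± 0.13). HSD17B3, with the same product as AKR1C3, was under 2 TPM in every tumor (0.62 ± 0.12). In all, 3 of 7 tested genes of this list passed as higher, where 31.4% of all genes did, and 1 of 6 did on TPM as deposited. The list median of 0.13 was below the 0.21 of all genes.

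The largest rises among called genes were in a varied set. CP, ceruloplasmin, a copper-carrying ferroxidase, was at 0.309 to 9.61 TPM in CRPC (median 1.94) and at 1.34 to 385 TPM in ENZS (median 24.0), so the ENZS tumors differed widely among themselves. The difference between groups was 2.67 ± 0.72 (adjusted p = 0.00356). SYNE1, a giant protein that ties the nucleus to the cytoskeleton, was at 0.670 to 7.78 TPM and 4.71 to 153 TPM (medians 3.54 and 25.9, 2.53 ± 0.55). AOC1, a diamine oxidase that degrades histamine and putrescine, had medians of 28.1 and 175 TPM (2.07 ± 0.62). CLU, clusterin, a secreted chaperone, had medians of 18.4 and 83.1 TPM (1.91 ± 0.43). The remaining members of the top 8 were MATN2 (2.06), AMOTL1 (2.03), APCDD1 (1.83) and TCIM (1.79). DDC, which makes dopamine and serotonin from their amino acid precursors, was at 32.4 to 386 TPM in CRPC (median 208) and at 226 to 1357 TPM in ENZS (median 485), a difference of 1.76 ± 0.51 (adjusted p = 0.00584). Levels of some of these genes were low in tumors of mock-operated mice. DDC averaged 12.9 ± 19.5 TPM in PRE-CX and 385 ± 240 TPM in POST-CX, SYNE1 0.435 ± 0.243 and 10.4 ± 25.1 TPM, and AOC1 0.467 ± 0.454 and 26.1 ± 39.4 TPM.

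Lysosomal genes rose together by modest amounts. Of 23 members 20 passed as higher, none as lower, with a median of 0.55 against 0.21 for all genes, and with 31.4% of all genes passing in that direction. CTSB, a lysosomal cysteine protease, was at 172 to 269 TPM in CRPC (median 196) and at 256 to 593 TPM in ENZS (median 426), a difference of 0.95 ± 0.18 (adjusted p = 8.36e-05), and the groups overlapped only at their edges. PSAP, the precursor of the saposins, had medians of 540 and 992 TPM (0.84 ± 0.15), CTSD, the aspartic protease, of 136 and 241 TPM (0.70 ± 0.16), and LAMP1, the main membrane glycoprotein, of 57.8 and 96.97 TPM (0.71 ± 0.15). TFE3, a factor that activates lysosomal genes, was higher as well (25.4 and 35.4 TPM, 0.49 ± 0.10). After centring 13 of the 23 still passed, and on TPM as deposited, where 6.21% of all genes passed as higher, 3 did. Of 20 autophagy genes 9 were higher, where 31.4% of all genes were (4 after centring, 1 on TPM as deposited), led by GABARAPL1, which coats the autophagosome (65.0 and 111 TPM, 0.77 ± 0.13).

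Chaperones and sensors of the endoplasmic reticulum were higher in 11 of 17 members of the unfolded-protein response (median 0.43), where 31.4% of all genes were. The count was 5 after centring and 2 on TPM as deposited. DNAJB9, a co-chaperone induced by IRE1 and XBP1, was the leading member, at 21.8 to 67.2 TPM in CRPC (median 28.2) and at 47.3 to 114 TPM in ENZS (median 69.6), a difference of 1.17 ± 0.22 (adjusted p = 0.000105). XBP1, the transcription factor of that branch, was at 99.8 to 147 TPM in CRPC (median 112) and at 160 to 291 TPM in ENZS (median 197), without overlap (0.83 ± 0.16). HSPA5, the chaperone BiP, had medians of 243 and 350 TPM (0.65 ± 0.13), and HERPUD1 of 161 and 245 TPM (0.62 ± 0.14). The ER stress element joins a CCAAT box to CCACG across a fixed gap. It is shown in capitals for XBP1 (chr22:28800570-28800819, minus strand) and HSPA5 (chr9:125241344-125241593, minus strand).
XBP1: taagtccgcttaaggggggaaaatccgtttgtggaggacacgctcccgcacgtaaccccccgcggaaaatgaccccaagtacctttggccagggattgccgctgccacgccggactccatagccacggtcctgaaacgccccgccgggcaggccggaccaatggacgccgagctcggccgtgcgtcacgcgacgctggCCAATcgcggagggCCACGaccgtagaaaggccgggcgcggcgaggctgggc
HSPA5: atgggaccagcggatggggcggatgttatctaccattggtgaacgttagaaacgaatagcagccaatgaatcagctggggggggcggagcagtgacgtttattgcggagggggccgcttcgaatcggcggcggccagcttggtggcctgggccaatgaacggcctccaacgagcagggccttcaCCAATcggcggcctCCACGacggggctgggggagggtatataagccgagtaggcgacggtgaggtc
The letters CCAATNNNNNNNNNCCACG lay 52 to 34 bases before the start of XBP1 and 66 to 48 bases before that of HSPA5. They were in 6 of 17 promoters of the list (35.3%) and in 15 of 10972 overall (0.137%). Targets of ATF4, the factor of the amino acid and stress response, passed as higher in 11 of 22 and as lower in 1, with SLC3A2, an amino acid transporter chain (151 and 304 TPM, 1.03 ± 0.20), and DDIT3, also known as CHOP (62.9 and 115.8 TPM, 1.02 ± 0.31), in front. Over all genes 31.4% passed as higher. After centring 5 of these targets were higher and 2 lower, on TPM as deposited 4 were higher, and without tumors under 85% human TPM 6 were.

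Antigen presentation by class I molecules was higher in 9 of 15 genes and lower in none (median 0.54), where 31.4% of all genes passed as higher. The count was 6 of 15 after centring and also on TPM as deposited. HLA-B (chr6:31353875-31357179) was at 63.3 to 192 TPM in CRPC (median 118) and at 73.8 to 435 TPM in ENZS (median 303), a difference of 1.23 ± 0.29 (adjusted p = 0.000929), and 11 of 12 ENZS tumors were above the CRPC median. HLA-E, the ligand of an inhibitory receptor on natural killer cells, had medians of 16.03 and 32.9 TPM (1.09 ± 0.22), HLA-C of 130 and 251 TPM (0.92 ± 0.20), and ERAP1, which trims peptides for loading, of 12.6 and 23.1 TPM (0.93 ± 0.19). B2M, the shared light chain, did not pass (1281 and 1675 TPM, 0.47, adjusted p = 0.103), but did without the CRPC tumor of mouse 47 (adjusted p = 0.0378). HLA genes are close in sequence, and reads may be split wrongly among them. Interferon-stimulated genes passed as higher in 14 of 33 and as lower in 1, where 31.4% of all genes passed as higher (6 and 1 after centring, 5 and 1 on TPM as deposited), among them IRF1 (3.84 and 7.29 TPM, 0.91 ± 0.26), IFIT2 (5.15 and 9.98 TPM, 0.83 ± 0.22) and MX1 (5.75 and 9.14 TPM, 0.76 ± 0.19).

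Part of the stroma and blood markers moved in the same direction. Only 9 of the 25 were high enough to be tested. Of those 5 passed as higher, where 31.4% of all genes did, and 4 did not pass. The count was 3 after centring and on TPM as deposited. It was also 3 without the CRPC tumor of mouse 35, 81 or 89 or the ENZS tumor of mouse 57, 79 or 80. CD68, a macrophage and lysosome glycoprotein, was at 0.0908 to 3.44 TPM in CRPC (median 0.357) and 0.624 to 11.3 TPM in ENZS (median 3.33), a difference of 1.40 ± 0.42. COL1A1 had medians of 4.28 and 8.22 TPM (1.01 ± 0.23) and TAGLN of 7.87 and 16.2 TPM (0.93 ± 0.18). COL3A1 had medians of 5.88 and 13.4 TPM, with a range of 1.34 to 73.3 TPM in ENZS. By contrast, the medians of LUM were 7.98 TPM in CRPC and 6.27 TPM in ENZS. Those of PDGFRB, which was at most 1.16 TPM, were 0.42 and 0.293 TPM. PTPRC, carried by all white blood cells, was at most 0.268 TPM and was at 0 in 9 of the 22 tumors. PECAM1 was at 0 in 16 of the 22. Stroma and blood cells of a xenograft come from the mouse, and only human genes were tabulated, so these levels do not count host cells directly. Whether they came from tumor cells or from mouse reads assigned to human genes was not tested. The part of these markers in the antigen presentation, interferon and lysosome results was not tested either. With the log2 human share as a covariate, 10 of 15 class I genes, 15 of 33 interferon-stimulated genes and 20 of 23 lysosomal genes passed as higher. Without tumors under 85% human TPM, the passing counts were 9 of 15 for class I presentation, 18 of 23 for lysosome and 9 of 33 for interferon-stimulated genes. In bulk tumors, a change in the share of tumor cells in a given state and a change in RNA per cell cannot be told apart, here and for the cell cycle genes above.

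VIM, vimentin, a filament of mesenchymal cells, was at 3.37 to 1018 TPM in CRPC (median 40.8) and at 38.7 to 643 TPM in ENZS (median 127), with a difference of 1.75 ± 0.63 (adjusted p = 0.0261). The highest value of all belonged to a CRPC tumor, that of mouse 102. The call was lost without CRPC mouse 43 or 81 or ENZS mouse 17 or 80 (adjusted p from 0.0509 to 0.0799), after centring (1.54, adjusted p = 0.0606), on TPM as deposited (1.67, adjusted p = 0.0680) and without an expression filter (adjusted p = 0.0568). Without tumors under 85% human TPM the difference was 0.92 (adjusted p = 0.310). The list of epithelial and mesenchymal genes passed as higher in 6 of 14, against 31.4% of all genes, or in 3 without ENZS mouse 17 or 80. After centring 2 were higher and 1 lower, on TPM as deposited 1 was higher, and without tumors under 85% human TPM 2 of 13 were. The 6 included the epithelial cadherin gene CDH1 (322 and 466 TPM, 0.71 ± 0.18) beside VIM. Of 24 neuroendocrine genes 5 could be tested and only SYP passed, with medians of 1.49 and 2.41 TPM (0.42 ± 0.10), a call that was lost after centring (0.21). CHGA, the chromogranin used to diagnose neuroendocrine disease, was at most 0.381 TPM in any of the 22 tumors and was not tested.

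Among growth factor genes, ERBB receptors and their ligands passed as higher in 6 of 10 and as lower in none (median 0.52), against 31.4% of all genes higher, and in 4 of 10 after centring and 2 of 9 on TPM as deposited. HBEGF, a ligand of EGFR and ERBB4, was at 1.78 to 5.28 TPM in CRPC (median 3.26) and at 4.83 to 19.2 TPM in ENZS (median 8.82), a difference of 1.25 ± 0.23 (adjusted p = 5.09e-05), and all 12 ENZS tumors were above the CRPC median. BTC, a further ligand, had medians of 1.94 and 3.65 TPM (0.80 ± 0.21). ERBB2, the coreceptor without a ligand of its own, was at 69.3 to 159 TPM in CRPC (median 105) and at 93.9 to 307 TPM in ENZS (median 175), with a difference of 0.78 ± 0.19. ERBB3 did not pass (88.3 and 92.4 TPM, 0.21, adjusted p = 0.146). Feedback targets of Wnt signaling were higher in 4 of 7, where 31.4% of all genes were. The count was also 4 of 7 after centring, and 2 of 7 on TPM as deposited. Those higher included APCDD1 (9.05 and 31.7 TPM), LEF1 (1.36 and 3.04 TPM, 1.03 ± 0.23) and AXIN2 (2.52 and 4.07 TPM, 0.53 ± 0.11). IGFBP3, which sequesters insulin-like growth factors, was higher (2.22 and 7.06 TPM, 1.26 ± 0.33), and the receptor gene IGF1R did not pass (1.45 and 2.26 TPM, 0.38, adjusted p = 0.278). In the BCL2 family 5 of 14 were higher, a share near the 31.4% of all genes, both of the protective kind, such as BCL2L2 (36.7 and 49.5 TPM, 0.66 ± 0.13), and of the death-promoting kind, such as BCL2L11, which encodes BIM (11.9 and 17.9 TPM, 0.58 ± 0.14). The count was 3 of 14 without CRPC mouse 29, 35 or 47 or ENZS mouse 56 or 80, after centring 2 passed as higher and 2 as lower, and on TPM as deposited none passed.

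Lipid genes were divided. EBP, a sterol isomerase, was lower (55.6 and 37.4 TPM, -0.68 ± 0.16) and SC5D, the desaturase 1 step further on, was higher (119 and 179 TPM, 0.61 ± 0.14). HMGCS1, the enzyme at the entrance of the pathway, did not pass (86.5 and 75.1 TPM, -0.10, adjusted p = 0.614). In all, 2 of 26 cholesterol genes were higher and 5 lower, 2 and 13 after centring, and none and 1 on TPM as deposited. The shares of all genes were 31.4% higher and 6.41% lower, 11.2% and 13.9% after centring, and 6.21% and 2.71% as deposited. FADS1, which desaturates long fatty acids, had medians of 34.8 and 20.1 TPM (-0.86 ± 0.15, adjusted p = 3.52e-05). SAT1, which acetylates polyamines for export, was higher (435 and 707 TPM, 0.80 ± 0.20).

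Some surface proteins serve as drug or imaging targets. FOLH1, which encodes prostate-specific membrane antigen, was at 827 to 1817 TPM in CRPC (median 1263) and at 1540 to 3362 TPM in ENZS (median 2090), a difference of 0.65 ± 0.19 (adjusted p = 0.00531), and all 12 ENZS tumors were above the CRPC median. STEAP2, a metalloreductase, had medians of 430 and 653 TPM (0.58 ± 0.18), a call lost after centring. Of 8 tested surface genes 3 passed as higher, a share near the 31.4% of all genes, against 1 higher and 1 lower after centring and none on TPM as deposited.

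**Figure D5:**
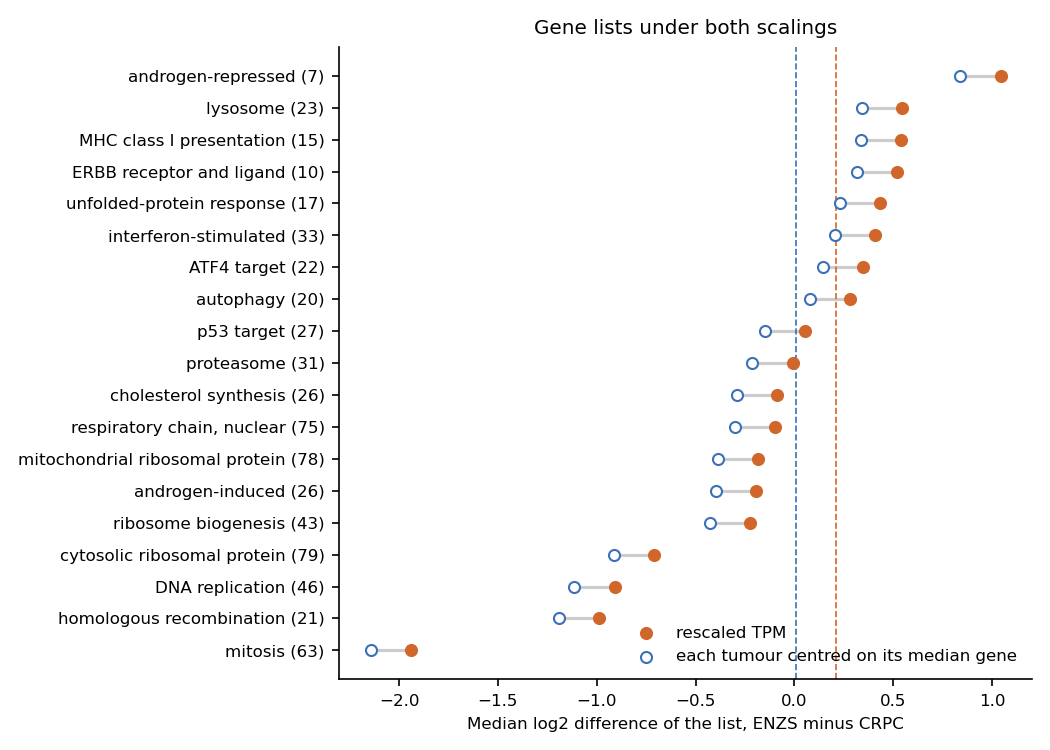
Median log2 difference (ENZS minus CRPC) of 19 gene lists on rescaled TPM (orange) and after centring each tumor on its median gene (open blue), number of tested genes in parentheses, with the median of all genes under each scaling as a dashed line (0.21 and 0.01). Mitosis lies at -1.94 and -2.14, androgen-induced genes at -0.19 and -0.40, and lysosome at 0.55 and 0.34.

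Nuclear genes of the respiratory chain passed as lower in 14 of 75 and as higher in none (median -0.10), with 41 lower after centring and none on TPM as deposited. Of all genes 6.41% passed as lower and 31.4% as higher. The share passing as lower was 13.9% after centring and 2.71% on TPM as deposited. Medians were -0.01 for 31 proteasome genes, 0.06 for 27 targets of p53 and -0.12 for 33 hypoxia and glycolysis genes. The numbered zinc finger genes, the largest list, were higher in 191 of 431, where 31.4% of all genes were, with a median of 0.26. After centring this became 52 higher and 29 lower, and on TPM as deposited 9 and 3 of 429. Across all protein-coding genes the difference moved with gene length. Genes spanning under 10000 bp had a median of 0.14 with 12.4% passing as lower, and those over 100000 bp had a median of 0.32 with 2.23% passing as lower. The part of gene length in the lists above was not tested.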

How the data were processed

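RNA-seq of 54 LNCaP xenografts (polyadenylated RNA, strand-specific, paired ends of 125 bp) was reported by the authors as TPM per human gene symbol. Per the submitters' processing notes and the methods of the study, reads were processed with FastQC 0.11.9, Trim Galore 0.6.5, STAR 2.7.2b and RSEM 1.3.3 on a combined GRCh38 and GRCm38 reference. RSEM splits ambiguous reads by estimation. The deposited TPM were rescaled here to 1000000 human TPM per tumor, and genes that reached 1 TPM in 8 or more tumors were tested on log2(TPM + 1) with limma 3.58.1 (R 4.3.3, trend option) as 5 group means over 54 tumors, checked on simulated data. None of 111 tumor pairs within CRPC and ENZS was identical (Pearson r over genes from 0.932 to 0.982). Each tumor was from a separate mouse, and no mouse number was shared between groups. Named genes were a panel of the pathway, the 8 strongest rises and 8 strongest falls among called genes (group mean of 5 TPM or more where higher), and, per list, up to 4 passed members with the largest difference and up to 2 others with the highest level, from which the text draws. Some named genes are not reported here. Members and lists were chosen with earlier results of these data known. Promoters and gene spans were RefSeq (GRCh38.p14), where 14325 of the tested symbols (81.4%) matched. The human share was compared by permutation (100000 resamples, scipy 1.17.1). Alternatives were other scalings, pseudocounts, filters, limma options and leaving out tumors.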

Additional observations from a re-analysis of the deposited data

Results flagged for a closer look

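In each of 109 named genes the highest and the lowest of the 10 CRPC tumors were checked for a gap to the nearest other tumor that exceeded Dixon's 95% critical value as a share of the group's range on the log2 scale. Chance alone gives such a gap in about 1 of 20 groups, and 7 genes had one. The ENZS group, with 12 tumors, was not checked in this way. No cause was tested for any of them.

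The CRPC tumor of mouse 47 was set apart for 3 genes. It had the lowest CCND1 (48.5 TPM, with the next tumor at 81.7 TPM), the highest DNAJB9 (67.21 against 38.04 TPM) and the highest XBP1 (147.1 against 121.8 TPM), so the CRPC tumor nearest to the ENZS range for the last 2 genes was the same. This tumor also had the highest ribosomal protein share among CRPC tumors (26.5%), the lowest mean of the mitosis genes (3.54) and the highest summed stroma and blood markers (111 TPM).

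The CRPC tumor of mouse 43, with the lowest human share of the group (77.1%), had the lowest SLC3A2 (90.51 against 132.5 TPM). Mouse 81 had the lowest HLA-E (5.877 against 12.1 TPM), mouse 29 the highest HSPA5 (413.6 against 280.9 TPM) and mouse 102 the highest VIM (1018 against 63.75 TPM).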

How the results depend on the processing

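No paired analysis was possible because no mouse number is shared between CRPC and ENZS. Of 109 named genes 97 passed, and none of those 97 changed sign under the alternatives run. On TPM as deposited 27 of 108 genes no longer passed. After centring 6 of 109 no longer passed and 1 newly passed. A gain of 1 gene was also seen without tumors under 70% human TPM, with sample weights, and with the human share as a covariate. On TPM as deposited 186 genes were called as higher, 151 genes did not overlap, and the members passing were 40 for ribosomal protein, 0 for androgen-induced, 3 for lysosome and 2 for the unfolded-protein response. After centring, the calls were 110 higher and 340 lower, and the members passing were 7 for androgen-induced, 13 for lysosome and 5 for the unfolded-protein response. With a pseudocount of 0.1, 1183 genes were called, 885 of them higher. Androgen-induced genes passing as lower were 5 when rescaled without ribosomal protein and mitochondrially encoded genes, 5 with sample weights and 0 without an expression filter. Between medians the human share differed by -4.59 points (permutation p = 0.0367), where the difference of means had p = 0.106. The cause of these shifts was not tested.

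Leaving out 1 tumor at a time gave 409 to 588 genes called, 245 to 383 genes without overlap (383 without the ENZS tumor of mouse 45) and 0 to 5 androgen-induced genes passing as lower. Fewer tumors make an overlap less likely, so a rise from 244 genes without overlap was built into that count. The counts for mitosis, DNA replication, ribosomal protein, class I presentation, lysosome and the unfolded-protein response stayed within 1.5 times. Of the named genes KLK2, KLK3, SLC45A3 and VIM no longer passed without some single tumor, and TMPRSS2 and B2M passed without 1. Among named genes that did not pass, the sign turned for CCND1 (0.047) and HMGCS1 (0.007) without tumors under 85% human TPM, and for RB1 after centring (-0.121) and when rescaled without ribosomal protein and mitochondrially encoded genes (-0.038). The exclusion of tumors under 85% human TPM and the human share as a covariate were chosen after seeing the data. TPM hold no read counts, so the depth that limits low genes is unknown.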

Other observations

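Within the ENZS group the tumors with the least KLK3 were also those with the lowest mitosis genes. The 5 lowest KLK3 values, from 232 to 1640 TPM, belonged to mice 49, 57, 56, 79 and 80, and the same 5 tumors had the lowest means of the 63 mitosis genes, from 1.42 to 2.06 on the log2 scale. They were also the ENZS tumors with the lowest UBE2C, from 0.424 to 3.53 TPM. In CRPC the lowest KLK3 (2820 TPM, mouse 47) came with the lowest mitosis mean (3.54), and the next lowest KLK3 (3600 TPM, mouse 43) came with a mean of 4.30. This order was noticed in the data and was not tested.

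Some genes outside the comparisons above also differed. The nuclear RNAs MALAT1 (medians 338 and 584 TPM, 0.84 ± 0.20) and NEAT1 (426 and 661 TPM, 0.66 ± 0.23) were higher in ENZS, though NEAT1 did not pass after centring. SRM, the spermidine synthase gene, was lower (79.2 and 49.0 TPM, -0.73 ± 0.15). The transcription factor genes GRHL2 (54.4 and 71.5 TPM, 0.56 ± 0.15), FOXA1 (268 and 351 TPM, 0.37 ± 0.12) and SOX9 (5.61 and 11.4 TPM, 0.84 ± 0.27) were higher, and GRHL2 alone of these passed after centring. Of 13 tested prostate lineage factors 4 passed as higher and none as lower, a share near the 31.4% of all genes that passed as higher. After centring 1 was higher and 1 lower, and on TPM as deposited none passed. MALAT1, NEAT1, GRHL2, FOXA1 and SOX9 did not pass on TPM as deposited.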
